A study of Mus musculus with 15 samples.

Results

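The 44 genes described here mark T cells and natural killer (NK) cells in the skin of SKH1 mice, a hairless strain in which ultraviolet B light brings on actinic keratoses. They were taken by symbol from a fixed list of receptor, co-receptor, checkpoint, cytotoxic and cytokine genes, and all 44 had a row in each of the 4 deposited tables, which hold 24027 symbols in common. The rule uses no measured value, but the list was drawn up with earlier results of these data known. An adjusted p was given to 31 of the 44 in non-lesional over non-UV-exposed skin, to 39 in perilesional over non-lesional skin and to 39 in lesional over non-UV-exposed skin. In placebo against GZ21T lesions only 10 had one. Cd3e, Lck, Cd5, Icos, Havcr2, Il2rg, Il7r, Gata3, Itgae and Cd163l1 are the 10 that had it in all 4. Gzma, Ncr1, Eomes, Il17a and Sh2d1a are the 5 with none in any table.

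The mice were female, 6 to 8 weeks old, and received ultraviolet B at 500 J/m2, on 5 days a week for 10 weeks. Placebo mice received 0.25 g of a placebo cream on 5 days a week, and the treatment arm the same weight of a cream with GZ21T, an agent the labels give by its code only. RNA was sequenced from 3 libraries in each of 5 groups: in placebo mice the lesions, the skin around them (perilesional), irradiated skin without lesions (non-lesional) and skin not exposed to ultraviolet light (non-UV-exposed), and in GZ21T mice the lesions. Every group shares the strain and the sex, and the labels give the irradiation and "actinic keratoses" for all of them. In the table headers the unexposed group is named back, and it was taken as that group by elimination. Body site and exposure cannot be told apart in comparisons with it. Libraries are numbered 1 to 3 in each group, and their titles repeat the same Control numbers across the placebo sites. Those sites may thus be matched by animal. Whether the authors' test used such a match is not given, and the derived comparisons take a model without it. No outright statement says that a number is an animal. The p-values therefore reflect library-to-library spread, some of which may be technical. The tables give fold changes between groups and no value for a library, so neither the values of single libraries nor depth can be shown, and markers of skin could not be checked by level. In whole skin, fewer cells of a type and less RNA per cell cannot be told apart.

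T cells sense antigen through a receptor whose signal passes inward through the CD3 chains and the zeta chain. The CD4 and CD8 co-receptors bind the antigen-presenting molecule and bring the kinase Lck to the complex. Co-stimulatory receptors such as CD28 and ICOS strengthen this signal, while CTLA-4, PD-1, LAG-3, TIGIT and TIM-3 restrain it. Killer T cells and NK cells release perforin and granzymes, and regulatory T cells, defined by the factor Foxp3, hold responses in check. Mouse epidermis is known for a resident network of gamma-delta T cells, which carry CD3 but mostly neither CD4 nor CD8.

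Lesions of placebo mice differed from unexposed skin in 10 of the 39 genes tested, 7 higher and 3 lower. That is a share of 25.6%, beside 18.3% of all 15201 genes tested, of which 10.2% were higher and 8.17% lower. The genes that rose include the CD8 alpha chain, ICOS, Foxp3 and the high-affinity IL-2 receptor chain, while 2 genes of the CD3 complex fell. Across the tested members the median log2 fold change was 0.39, beside 0.08 over all genes tested. The median standard error (SE) of a member was 0.69 on the log2 scale, against 0.34 over all genes, so these genes were measured less precisely than most. When the null spread of the Wald statistics was estimated from all genes instead, 0 of the 10 passed and 14 of all 15201 genes did. That spread, 1.92, was taken with changed genes included, so it can exceed the spread of unchanged genes. This setting cannot tell understated errors from many changed genes. Gzmc and Il2rg, the calls nearest the threshold, were also lost on centring (adjusted p = 0.053 and 0.062).

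Among the 4 genes of the T cell receptor complex, Cd3g, the gamma chain of CD3, fell by 1.52 ± 0.43 (SE) on the log2 scale in lesions over unexposed skin, or 2.86-fold (adjusted p = 0.0063, from the authors' deposited table). Cd3e, the epsilon chain, fell by 1.48 ± 0.44, or 2.78-fold (adjusted p = 0.0086, from the authors' deposited table). Both lie with Cd3d on chromosome 9 of GRCm38, Cd3g at 44969572 to 44980431 and Cd3e at 44998740 to 45009627, both on the minus strand. The zeta chain gene Cd247 stood at -1.12 ± 0.55 (adjusted p = 0.14) and the delta chain gene Cd3d at -0.21 ± 0.91 (adjusted p = 0.90) by the authors' deposited table, and neither passed. All 4 chains are parts of the same receptor complex, and none of them was called higher in any of the 6 comparisons tested.

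The co-receptor genes all had positive values, and 1 of the 3 passed. Cd8a, on chromosome 6 at 71373427 to 71379173, plus strand, rose by 2.66 ± 0.69 in lesions, or 6.30-fold (adjusted p = 0.0025, from the authors' deposited table). The neighbouring Cd8b1, which encodes the beta chain of the same co-receptor, stood at 2.58 ± 1.25 (adjusted p = 0.14, from the authors' deposited table), a fold change of like size with a wider error. Cd4, the co-receptor of helper and regulatory T cells, stood at 1.76 ± 0.87 (adjusted p = 0.15, from the authors' deposited table). Of the 6 signalling and adhesion genes tested 1 rose: Cd6, a surface receptor that tunes T cell activation, by 2.34 ± 0.63 or 5.07-fold (adjusted p = 0.0036, from the authors' deposited table). The kinases Lck and Zap70, the adaptor Lat, the adhesion receptor Cd2 and the inhibitory receptor Cd5 lay between -0.51 and 0.21 in the authors' deposited table, and none passed.

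Rises were also found among co-stimulatory and regulatory T cell genes. Icos rose by 2.24 ± 0.58, or 4.71-fold (adjusted p = 0.0022, from the authors' deposited table), while Cd28 stood at -0.62 ± 0.89 (adjusted p = 0.68) and Cd27 at 1.05 ± 1.17 (adjusted p = 0.57). These 3 genes are all co-stimulatory receptors, and only Icos passed. Foxp3, on chromosome X at 7573644 to 7595245, plus strand, rose by 3.29 ± 1.00, or 9.75-fold (adjusted p = 0.011, from the authors' deposited table). Il2ra, which encodes the IL-2 receptor alpha chain (CD25) borne by regulatory and activated T cells, rose by 2.66 ± 0.74, or 6.34-fold (adjusted p = 0.0048, from the authors' deposited table). The common gamma chain gene Il2rg rose by 0.98 ± 0.36, or 1.97-fold (adjusted p = 0.040, from the authors' deposited table). The IL-2 receptor beta chain gene Il2rb, at 0.23 ± 0.43 (adjusted p = 0.76), and the IL-7 receptor gene Il7r, at -0.69 ± 0.42 (adjusted p = 0.25), did not pass in the authors' deposited table. None of the 5 checkpoint genes passed. Ctla4 had the smallest p of them, at 0.94 ± 0.65 (adjusted p = 0.32), and Pdcd1, Lag3, Tigit and Havcr2 lay between -0.06 and 0.83 in the authors' deposited table.

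Of the cytotoxic granule genes, 4 were tested in lesions over unexposed skin. Gzmc, a granzyme, rose by 2.20 ± 0.83, or 4.60-fold (adjusted p = 0.045, from the authors' deposited table), and Gzmb stood at 2.02 ± 1.42 (adjusted p = 0.33). Prf1, which encodes the pore-forming perforin, stood on the other side at -2.03 ± 0.87 (adjusted p = 0.084, from the authors' deposited table), and the granule membrane gene Nkg7 at 0.09 ± 0.74 (adjusted p = 0.95). The values of the granule genes lay on both sides of 0. NK cell receptors gave 0 calls among 3 tested: Klrk1 (NKG2D) stood at 0.58 ± 0.60, Klrd1 (CD94) at -1.20 ± 0.86 and Klrb1c (NK1.1) at -2.59 ± 1.57 in the authors' deposited table, with adjusted p of 0.53, 0.34 and 0.25. Ncr1, the activating receptor NKp46, had no adjusted p, at 0.24 ± 2.70, an error too wide to show a difference.

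Promoter sequences from RefSeq on GRCm38.p6, 250 bases before to 50 after the start of transcription, matched 32 of the 44 genes. They are shown for 2 members that fell together in lesions, Cd3e and Cd3g, and 2 that rose, Cd8a and Gzmc. Capitals mark the motifs searched on both strands, the Runx core TGTGGT, the Ets core AGGAAG, the STAT motif TTCNNNGAA and the interferon response motif (GAAA, any 2 bases, GAAA), which may overlap each other.
Cd3e (chr9:45009562-45009861, minus strand): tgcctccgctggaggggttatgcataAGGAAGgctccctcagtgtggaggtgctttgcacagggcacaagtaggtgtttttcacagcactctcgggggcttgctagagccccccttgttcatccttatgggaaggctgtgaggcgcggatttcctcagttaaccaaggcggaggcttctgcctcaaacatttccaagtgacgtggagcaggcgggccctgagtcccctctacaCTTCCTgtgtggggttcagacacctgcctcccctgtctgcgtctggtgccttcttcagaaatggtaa
Cd3g (chr9:44980382-44980681, minus strand): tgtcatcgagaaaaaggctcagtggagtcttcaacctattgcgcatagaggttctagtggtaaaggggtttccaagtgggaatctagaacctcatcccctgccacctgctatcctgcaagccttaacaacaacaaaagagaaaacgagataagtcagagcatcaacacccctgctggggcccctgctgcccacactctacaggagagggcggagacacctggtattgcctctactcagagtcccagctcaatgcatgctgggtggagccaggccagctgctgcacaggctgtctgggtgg
Cd8a (chr6:71373177-71373476, plus strand): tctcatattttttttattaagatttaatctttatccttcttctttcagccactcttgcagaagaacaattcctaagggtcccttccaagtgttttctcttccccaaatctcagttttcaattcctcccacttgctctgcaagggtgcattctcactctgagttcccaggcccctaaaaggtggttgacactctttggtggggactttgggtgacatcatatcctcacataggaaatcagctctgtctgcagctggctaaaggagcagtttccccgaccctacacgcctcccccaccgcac
Gzmc (chr14:56234608-56234907, minus strand): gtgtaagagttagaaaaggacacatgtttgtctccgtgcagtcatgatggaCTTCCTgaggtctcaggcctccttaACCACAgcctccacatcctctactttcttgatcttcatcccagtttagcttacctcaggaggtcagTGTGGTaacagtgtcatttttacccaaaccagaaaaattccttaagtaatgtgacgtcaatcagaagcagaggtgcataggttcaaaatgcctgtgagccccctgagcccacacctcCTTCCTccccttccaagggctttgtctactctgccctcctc

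The promoter of Cd3e holds 2 Ets cores and that of Gzmc 2 Ets and 2 Runx cores, while those of Cd3g and Cd8a hold none of the 4 motifs in this window. Within each pair of genes the 2 promoters differ in these counts. Among the 32 member promoters the Runx core was found in 15, or 46.9%, against 16.9% of 27025 promoters of the same length. The Ets core was found in 18, or 56.2%, against 35.1%, the STAT motif in 5, or 15.6%, against 8.42%, and the interferon response motif in 2, or 6.25%, against 3.49%. Such matches are a description of the letters in these windows.

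Among the transcription factors besides Foxp3, Gata3 fell by 1.03 ± 0.32, or 2.04-fold (adjusted p = 0.013, from the authors' deposited table). Gata3 directs type 2 helper T cells and innate lymphoid cells, and it is also a factor of the hair follicle and epidermis. The hair follicle list, 19 genes all tested, had 4 lower and 0 higher in the same comparison with a median of -1.91. That is 21.1% called beside 18.3% of all genes tested, and the part of this list in the value of Gata3 was not tested. The gene 4930412O13Rik, annotated on the opposite strand within the span of Gata3, fell as well, by 1.26 ± 0.40 (adjusted p = 0.015, from the authors' deposited table). Whether the counting used strand is not given in the sources used here. Tbx21, the factor of type 1 responses, stood at 3.26 ± 1.64 (adjusted p = 0.15) and its target Ifng at 3.12 ± 1.71 (adjusted p = 0.20) by the authors' deposited table, both large and imprecise. The residency gene Cd69 stood at 2.59 ± 1.42 (adjusted p = 0.20) and Itgae (CD103), an integrin that tethers lymphocytes to epithelium, at 0.67 ± 0.40 (adjusted p = 0.23) by the authors' deposited table. Eomes and Il17a had an SE of 3.60 and 6.00, so no statement on the type 17 cytokine is possible here.

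**Figure D1:**
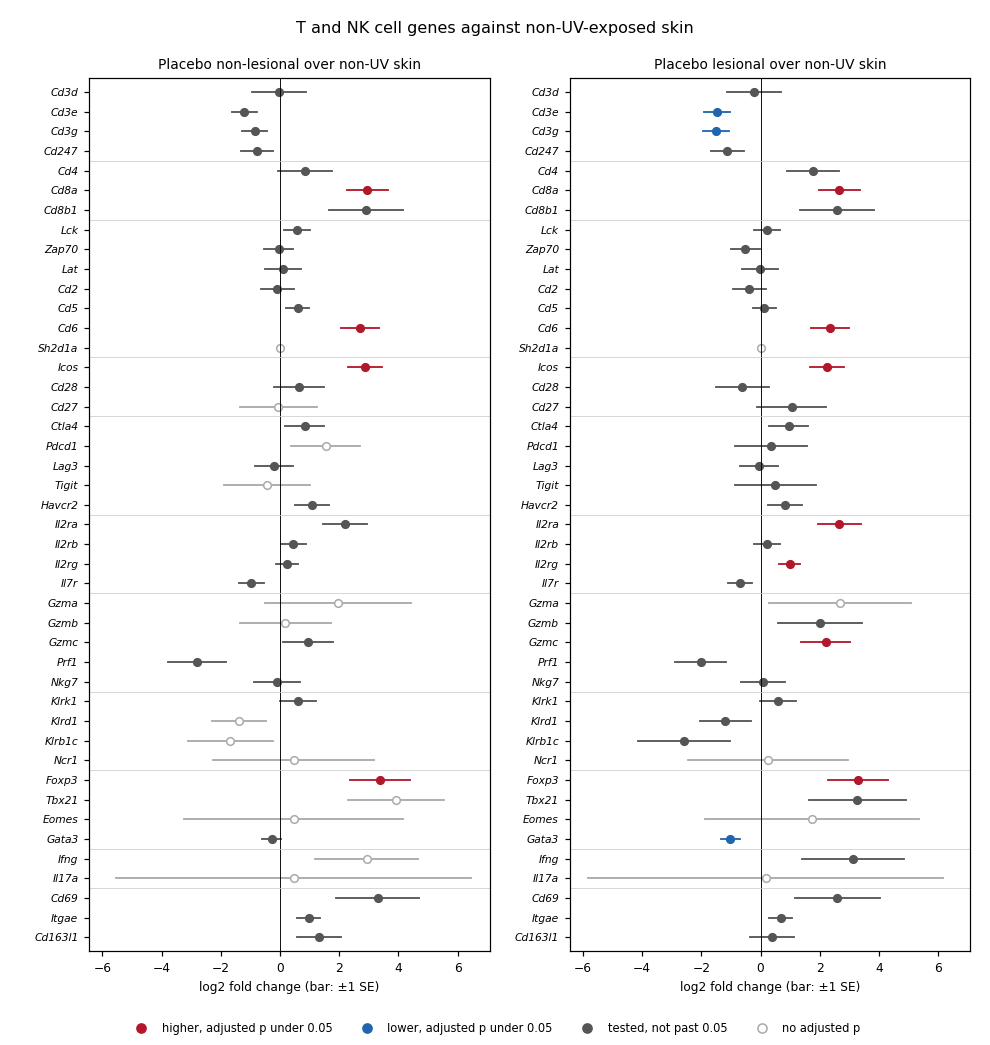
Log2 fold change of each of the 44 genes (rows, in role groups) in placebo non-lesional (left) and lesional (right) skin over non-UV-exposed skin; points are the deposited values, bars ±1 SE, and open points have no adjusted p. Cd8a, Cd6, Icos and Foxp3 stand to the right in both panels, and Cd3e and Cd3g to the left, past the threshold in the right panel.

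Irradiated skin free of lesions already showed part of this pattern. Of 31 members tested against unexposed skin 4 were higher and 0 lower, or 12.9%, beside 1.66% of all 14124 genes tested (1.13% higher and 0.531% lower). Icos rose by 2.86 ± 0.57, or 7.28-fold (adjusted p = 0.00021, from the authors' deposited table). Cd6 rose by 2.69 ± 0.63, or 6.48-fold (adjusted p = 0.0034), and Cd8a by 2.94 ± 0.69, or 7.67-fold (adjusted p = 0.0037), by the authors' deposited table. Foxp3 rose by 3.38 ± 1.00, or 10.4-fold (adjusted p = 0.047, from the authors' deposited table), and did not pass without the filter on low counts (adjusted p = 0.062). These 4 are also among the 10 genes called in lesions, and both comparisons share the 3 unexposed libraries.

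Of the other 6 genes called in lesions, Il2ra stood at 2.20 ± 0.75 in non-lesional skin (adjusted p = 0.13), Cd3e at -1.20 ± 0.44 (adjusted p = 0.17) and Cd3g at -0.86 ± 0.42 (adjusted p = 0.46) by the authors' deposited table. Gzmc stood at 0.94 ± 0.85 (adjusted p = 0.85), Il2rg at 0.23 ± 0.37 (adjusted p = 0.94) and Gata3 at -0.29 ± 0.32 (adjusted p = 0.89). Lesional skin can be set against non-lesional skin by subtracting the tables, though these fix only an upper limit of the SE. By that difference Il2ra stood at 0.46 (SE at most 0.75), Cd3e at -0.27 (SE at most 0.61), Cd3g at -0.66 (SE at most 0.59), Gzmc at 1.26 (SE at most 1.03), Il2rg at 0.75 (SE at most 0.49) and Gata3 at -0.74 (SE at most 0.45). With only an upper limit of the SE this contrast was not tested, so these values do not settle whether any of these 6 changed between non-lesional and lesional skin.

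Among members that did not pass in non-lesional skin, Prf1 stood at -2.80 ± 0.98 (adjusted p = 0.15), Havcr2 (TIM-3) at 1.08 ± 0.59 (adjusted p = 0.55) and Itgae at 0.97 ± 0.40 (adjusted p = 0.28) by the authors' deposited table. Klrk1 was the single NK receptor with an adjusted p, at 0.59 ± 0.61 (adjusted p = 0.87). The other 13 members lacked an adjusted p, with an SE between 0.91 and 6.01 where one could be computed. Sh2d1a, which encodes the signalling adaptor SAP, was listed at exactly 0 in 3 of the 4 tables. The remaining table, perilesional over non-lesional skin, gives it 2.08 ± 5.95.

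Perilesional skin, set against non-lesional skin, gave 0 calls among 39 members by the authors' DESeq2 test, with 4 at an unadjusted p under 0.05, beside 0.112% called of 15201 genes tested (0.0921% higher and 0.0197% lower). Of the 39, 34 lay above 0, a share of 87.2% beside 53.1% of all genes tested, and their median was 0.49 beside 0.03. Values were also above 0 for 14 of 14 macrophage genes (median 1.02) and 14 of 15 dendritic and Langerhans cell genes (median 0.83). The same held for 10 of 10 mast cell and eosinophil genes (median 1.25), with 0 called in these lists. Sebaceous genes had 14 of 14 above 0 with 3 called (median 2.28), and hair follicle genes 18 of 19 below 0 with 1 called (median -2.99). Their part in the values of the members was not tested. The smallest p belonged to Cd163l1, a scavenger receptor gene (SCART1) used as a marker of gamma-delta T cells in the mouse, at 1.86 ± 0.71 (adjusted p = 0.42, from the authors' deposited table). Il7r stood at 1.03 ± 0.41 (adjusted p = 0.47), Il2rb at 0.80 ± 0.38 (adjusted p = 0.59), Cd3e at 0.76 ± 0.43 (adjusted p = 0.71) and Cd4 at 1.53 ± 0.78 (adjusted p = 0.63) by the authors' deposited table. In the other role groups the smallest p belonged to Gzmc at 1.35 ± 0.74, Cd27 at 1.84 ± 1.05, Tigit at 1.90 ± 1.34, Klrk1 at 0.75 ± 0.55, Lat at 0.71 ± 0.58, Gata3 at -0.40 ± 0.32 and Ifng at -0.53 ± 1.44 in the authors' deposited table. None passed, with adjusted p from 0.68 to 0.97. The 4 genes called in non-lesional skin, whose libraries this comparison shares, lay between -0.00 and 0.36 here: Cd6 at -0.00 ± 0.45, Cd8a at 0.13 ± 0.53, Foxp3 at 0.22 ± 0.71 and Icos at 0.36 ± 0.41 in the authors' deposited table. Il2ra, at 2.20 in non-lesional skin without passing, stood at 1.05 ± 0.54 (adjusted p = 0.64, from the authors' deposited table).

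Lesional skin was compared with perilesional skin by combining 3 of the tables, with SEs and p-values derived from them. Cd163l1 fell by 2.79 ± 0.72, or 6.91-fold (adjusted p = 0.029, normal test with Benjamini-Hochberg adjustment), the 1 call among 31 members, or 3.23%, beside 0.68% of 14121 genes (0.411% higher and 0.269% lower). It did not pass (adjusted p = 0.31) when the null spread was taken from the genes. Its gene lies on chromosome 7 at 140218267 to 140231145, plus strand, of GRCm38. Over unexposed skin Cd163l1 stood at 1.32 in non-lesional, 3.18 in perilesional, 0.39 in lesional and 0.39 in GZ21T lesional skin on the log2 scale. The highest value was that of perilesional skin, which did not pass over non-lesional skin, and the difference between the last 2 groups was -0.00 ± 0.74.

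Among the 31 tested members 29 lay below 0 in lesions against perilesional skin, with a median of -0.70 beside 0.05 over all genes tested, and 2, Lag3 and Il2rg, lay above. In the same comparison 11 of 13 dendritic and Langerhans cell genes lay below 0 (median -0.36), while 14 of 18 hair follicle genes (median 2.73), 8 of 8 mast cell and eosinophil genes (median 1.28) and 9 of 10 endothelial genes (median 1.24) lay above it. None of these genes was called, and their part in the values of the members was not tested. Cd3g stood at -1.21 ± 0.43 (adjusted p = 0.19), Il2rb at -1.03 ± 0.38 (adjusted p = 0.22), Cd3e at -1.03 ± 0.43 and Icos at -0.98 ± 0.41 (both adjusted p = 0.32), Itgae at -0.85 ± 0.38 (adjusted p = 0.36) and Lck at -0.84 ± 0.41 (adjusted p = 0.42), by the derived normal test. Each had an unadjusted p under 0.05 and did not pass. The co-receptor genes Cd8a and Cd8b1 stood at -0.41 ± 0.53 and -0.73 ± 0.76, and Klrk1 at -0.76 ± 0.54. The perilesional libraries enter this comparison and the one before it with opposite sign, so the 2 directions are not separate measurements. The tables hold no values per library to show whether 1 perilesional library carries them.

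**Figure D2:**
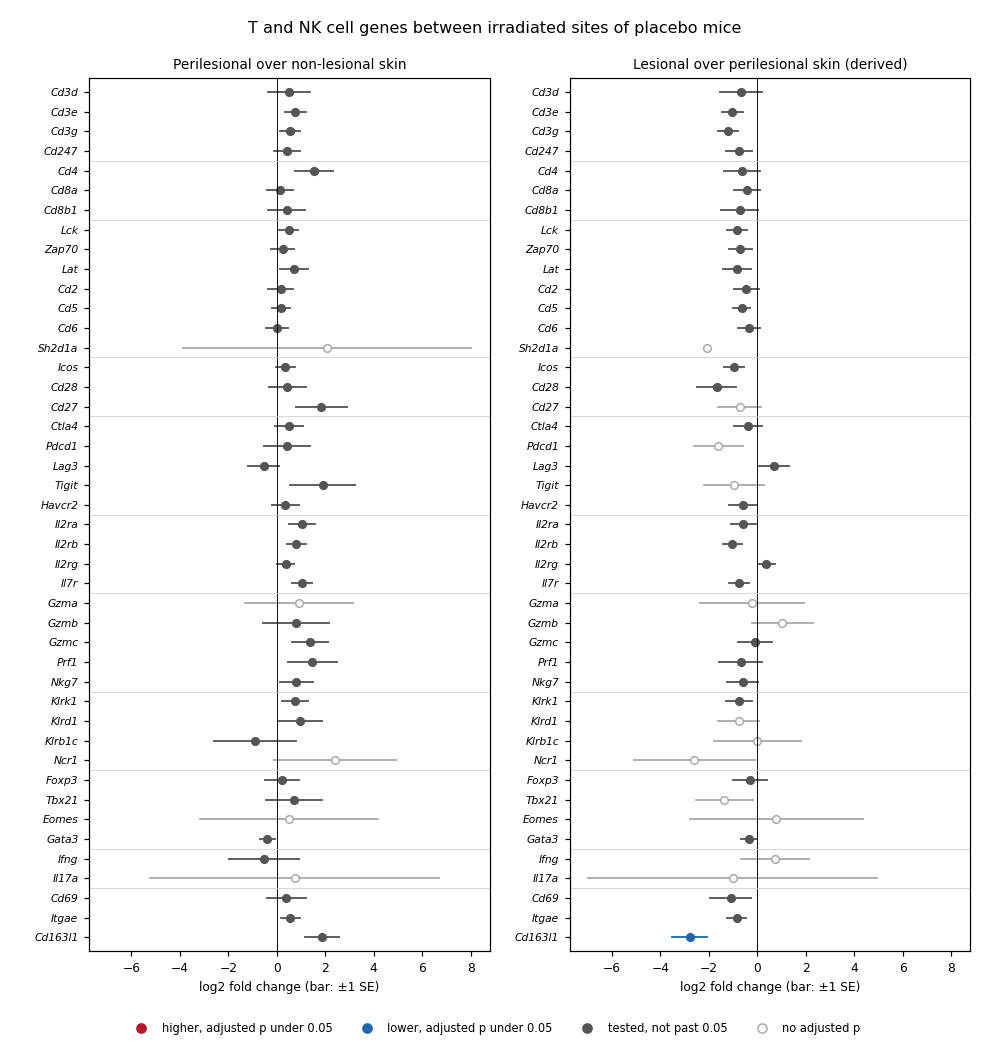
Log2 fold change of the 44 genes in perilesional over non-lesional skin (left, deposited) and in lesional over perilesional skin (right, derived), with bars of ±1 SE; open points have no adjusted p. Points lie mostly right of 0 on the left and left of 0 on the right, with the same perilesional libraries in both, and Cd163l1 at -2.79 is the 1 gene past the threshold.

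Placed side by side against unexposed skin, the genes called higher differed in how far the 4 irradiated groups lay apart. Cd8a stood at 2.94 in non-lesional, 3.07 in perilesional, 2.66 in lesional and 2.59 in GZ21T lesional skin, where the SE of the perilesional and GZ21T values is at most 0.87 and 0.89. Icos stood at 2.86, 3.22, 2.24 and 3.04 in the same order, and Foxp3 at 3.38, 3.60, 3.29 and 4.21. Il2ra stood at 2.20, 3.25, 2.66 and 2.78, Gzmc at 0.94, 2.29, 2.20 and 1.40 and Il2rg at 0.23, 0.61, 0.98 and 0.55. The values of Cd8a thus lay within 1 SE of each other, while those of Gzmc and Il2rg were spread more widely for their size. Cd3e stood at -1.20, -0.44, -1.48 and -0.66 and Cd3g at -0.86, -0.31, -1.52 and -0.74, so the values of both were negative in all 4 groups. Only non-lesional and placebo lesional skin were tested against unexposed skin, and both genes passed in the lesions alone. In perilesional skin the upper limit of the SE is 0.61 for Cd3e and 0.59 for Cd3g. These limits exceed the size of either value, but the SE itself is not known. Prf1 had values between -2.80 and -1.33 and Klrb1c between -2.59 and -0.76. Prf1 did not pass in the 2 groups tested against unexposed skin, nor Klrb1c in lesions, where alone it was tested.

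**Figure D3:**
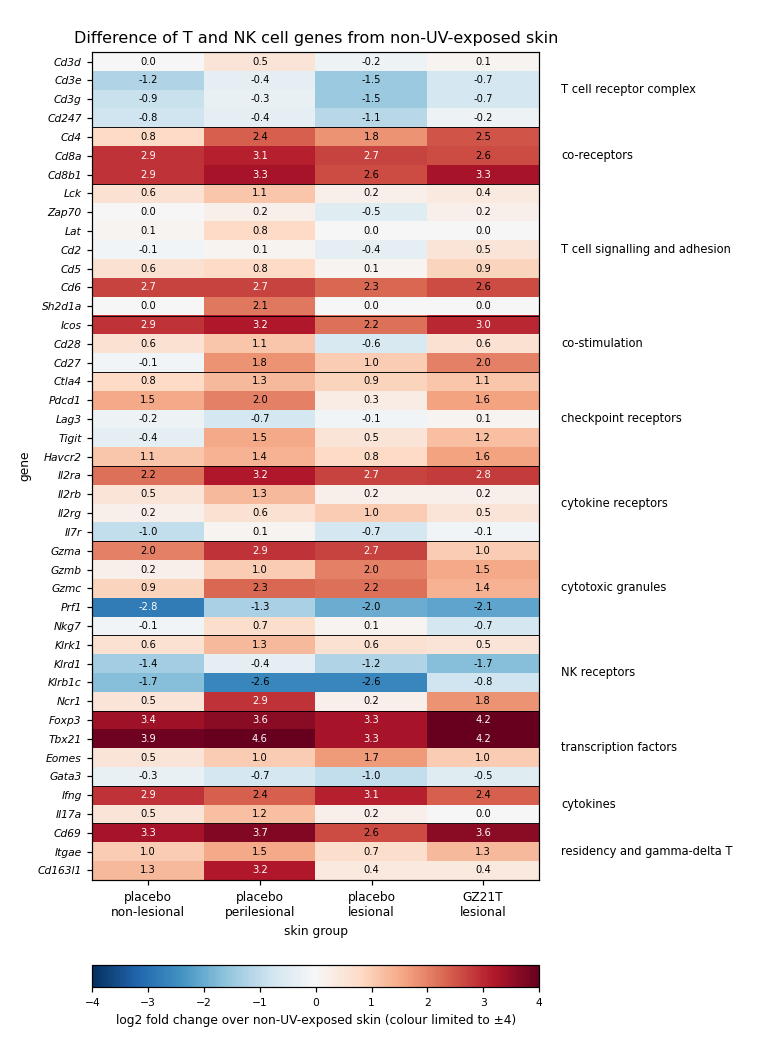
Log2 fold change of the 44 genes (rows) over non-UV-exposed skin in 4 irradiated groups of skin (columns); the number in each cell is the value, colours stop at ±4, and perilesional and GZ21T values are sums of deposited values with no test. Cd8a, Cd8b1, Cd6, Icos, Il2ra, Foxp3, Tbx21, Ifng and Cd69 are above 2 in every column, while Cd3e, Cd3g, Cd247, Prf1, Klrd1, Klrb1c and Gata3 are below 0 in every column.

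Lesions of GZ21T mice were compared with those of placebo mice to ask whether the cream changed these genes; the deposited values were turned in sign to read GZ21T over placebo. No member was called by the authors' DESeq2 test, 0 of the 10 with an adjusted p and with 1 of them at an unadjusted p under 0.05, beside 3.61% of 10899 genes tested (1.31% higher and 2.29% lower). Of the 10, 8 lay above 0, with a median of 0.62 beside -0.06 over all genes tested. Cd5 stood at 0.80 ± 0.37 (adjusted p = 0.17), Icos at 0.81 ± 0.42 (adjusted p = 0.23), Cd3e at 0.82 ± 0.45 (adjusted p = 0.26) and Gata3 at 0.52 ± 0.32 (adjusted p = 0.32) by the authors' deposited table. The 95% interval for Icos ran from -0.03 to 1.64 and that for Cd3e from -0.06 to 1.70, so both intervals hold 0 as well as sizeable rises. Cd163l1, at -0.00 ± 0.74, had an interval from -1.44 to 1.44.

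The other 34 members had no adjusted p in this table, which gives it to the fewest genes. By their deposited values Cd8a stood at -0.07 ± 0.55, Cd6 at 0.27 ± 0.47, Il2ra at 0.11 ± 0.54 and Foxp3 at 0.92 ± 0.71. Adjusting over the 15201 genes tested in lesional over unexposed skin, which brings in 39 members, also called none (an alternative chosen after seeing the data). All 5 cytotoxic granule genes were below 0 in GZ21T lesions, from -1.72 ± 2.39 for Gzma to -0.04 ± 1.01 for Prf1, while all 4 genes of the CD3 complex were above 0, from 0.32 ± 0.90 for Cd3d to 0.90 ± 0.55 for Cd247. Of these 9 only Cd3e was tested, and it did not pass. The placebo lesional libraries enter both this comparison and that with unexposed skin. GZ21T lesions against placebo non-lesional skin, derived in the same way, gave 0 calls among 10 members and 0 of 10899 genes, with 1 member, Il7r at 0.92 ± 0.42, at an unadjusted p under 0.05 by the normal test. Cd8a stood at -0.35 ± 0.55 and Icos at 0.18 ± 0.42 in that comparison.

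**Figure D4:**
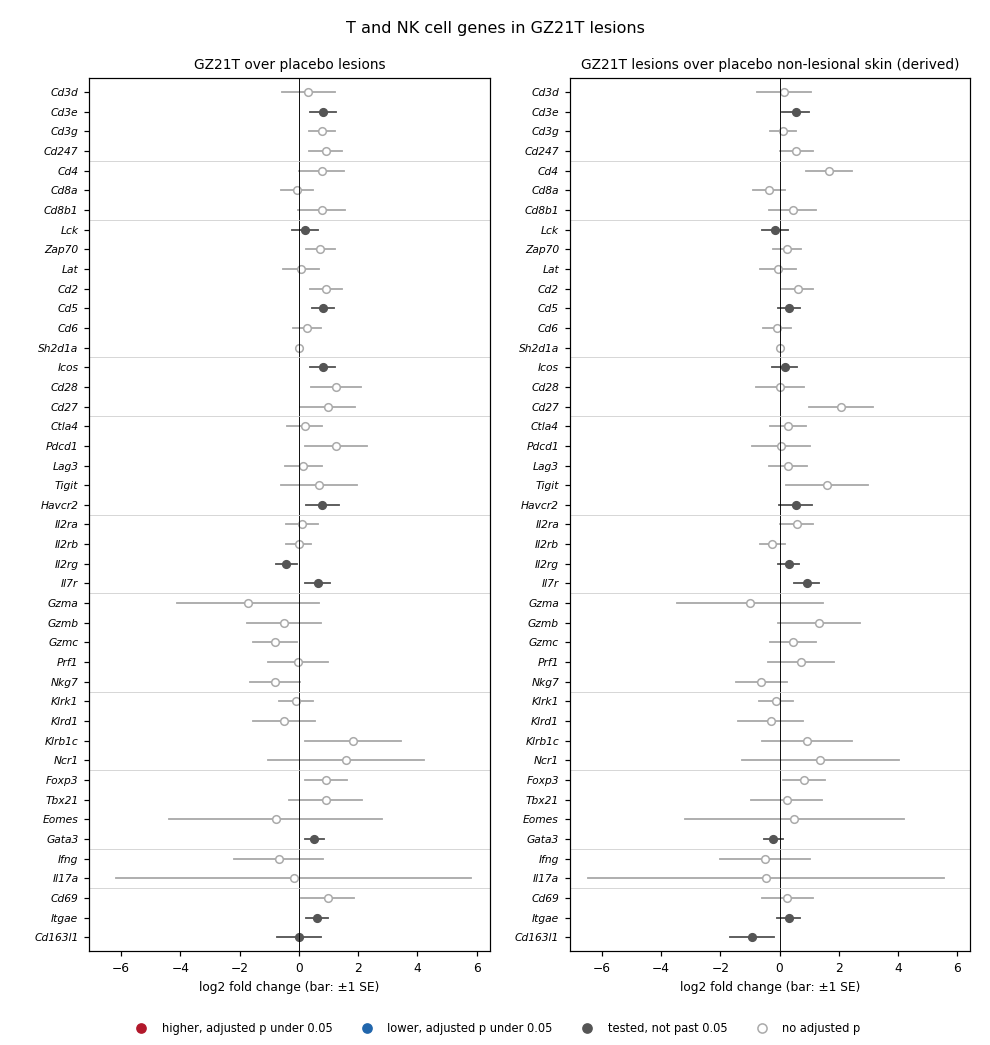
Log2 fold change of the 44 genes in GZ21T over placebo lesions (left, deposited and turned in sign) and in GZ21T lesions over placebo non-lesional skin (right, derived), with bars of ±1 SE; open points, 34 of 44, have no adjusted p. No point is coloured as past the threshold in either panel.

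Other genes of T cell biology gave a mixed picture in lesions over unexposed skin. Of 30 further genes of T cell receptor signalling 25 were tested and 1 changed, or 4% beside 18.3% of all genes tested. Trat1, an adaptor of the receptor complex, fell by 2.68 ± 0.92 (adjusted p = 0.025, from the authors' deposited table). The pan-leukocyte gene Ptprc (CD45), chosen for mention after its value was seen, stood at 0.17 ± 0.41 (adjusted p = 0.82, from the authors' deposited table). The constant and variable segments of the T cell receptor genes on the lists were not analysed here. Of 22 T cell transcription factors, all tested, 4 were higher and 4 lower, or 36.4% beside the same 18.3%. Runx1 rose by 1.00 ± 0.20 (adjusted p = 6.9e-05) and Rora fell by 0.75 ± 0.20 (adjusted p = 0.0030), Satb1 by 1.24 ± 0.35 (adjusted p = 0.0062) and Maf by 0.53 ± 0.16 (adjusted p = 0.0074) by the authors' deposited table. Ikzf3, a lymphocyte factor, rose in non-lesional skin too, by 2.55 ± 0.60 (adjusted p = 0.0037, from the authors' deposited table).

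Of the 13 further regulatory T cell genes tested 3 were higher and 2 lower, or 38.5% beside 18.3% of all genes tested. Values lay above 0 for 9 and below 0 for 4, with a median of 0.88 beside 0.08 over all genes tested. The activation receptor Tnfrsf9 (4-1BB) rose by 2.63 ± 0.96 (adjusted p = 0.037) and the ectonucleotidase Nt5e (CD73) by 1.68 ± 0.49 (adjusted p = 0.0075), while Ikzf2 (Helios) fell by 1.84 ± 0.38 (adjusted p = 9.8e-05) and the homing receptor Ccr4 by 2.65 ± 0.57 (adjusted p = 0.00017), by the authors' deposited table. In GZ21T over placebo lesions Ikzf2 stood 1.22 ± 0.39 higher (adjusted p = 0.046, from the authors' deposited table). It was the 1 call among 7 tested genes of that list, 14.3% beside 3.61% of all genes tested. The placebo lesional libraries enter this comparison and that with unexposed skin with opposite sign. The 2 directions of Ikzf2 are therefore not separate measurements. In lesions over unexposed skin 10 genes of gamma-delta and epidermal T cells were tested. Of these 1 was higher and 2 lower, or 30% beside 18.3% of all genes tested. Cd101 rose by 2.10 ± 0.55 (adjusted p = 0.0027, from the authors' deposited table). Il1r1 fell by 1.29 ± 0.26 (adjusted p = 4.1e-05) and Skint1 by 1.14 ± 0.31 (adjusted p = 0.0044) by the authors' deposited table. Skint1 is a keratinocyte gene needed for the epidermal gamma-delta T cells to form.

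Signals that draw or engage T cells were tested next. Of 15 T cell-recruiting chemokines 3 were higher and 0 lower in lesions over unexposed skin, 20% beside the 18.3% of all genes tested: Cxcl9 by 3.72 ± 0.45 (adjusted p = 3.3e-13), Cxcl10 by 4.60 ± 0.91 (adjusted p = 3.7e-05) and Ccl8 by 3.59 ± 0.88 (adjusted p = 0.0011) by the authors' deposited table. Of the 18 homing and chemokine receptor genes tested 1 was higher, the integrin Itga1 by 2.45 ± 0.76 (adjusted p = 0.012, from the authors' deposited table), and 1 lower, Ccr4. Of 23 ligands of the listed receptors 3 were higher and 1 lower, or 17.4%, which is near that share too. Icosl, the ligand of ICOS, rose by 1.51 ± 0.27 (adjusted p = 2.5e-06), Cd86, a ligand of CD28 and CTLA-4, by 1.47 ± 0.50 (adjusted p = 0.024) and the NKG2D ligand Ulbp1 by 1.70 ± 0.58 (adjusted p = 0.025) by the authors' deposited table. In non-lesional skin 2 of 12 tested chemokines were higher and 0 lower, 16.7% beside 1.66% of all genes tested. Cxcl9 rose by 3.21 ± 0.46 (adjusted p = 3.5e-09) and Cxcl10 by 3.95 ± 0.92 (adjusted p = 0.0031) by the authors' deposited table. Among 22 ligands tested there Icosl was the 1 call, higher by 1.10 ± 0.27 (adjusted p = 0.0063, from the authors' deposited table). Receptor and ligand of this pair were thus both called in both comparisons, which share the unexposed libraries.

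Markers of other cells were called in differing shares in lesions over unexposed skin, beside 18.3% of all genes tested. Of 6 tested genes of type 2 innate lymphoid cells 2 were higher (Areg and Arg1) and 3 lower (Il17rb, Rora and Gata3), with a median of 0.61, and Gata3 is also a member here. The share called in that list was 83.3%. Of 6 tested neutrophil genes 3 were higher and 1 lower (66.7%, median 1.06). Of 10 basal keratinocyte genes 1 was higher and 3 lower (40%, median -0.15). Dendritic and Langerhans cell genes were higher for 4 of 15 tested and lower for 0 (26.7%, median 1.12). Endothelial genes were higher for 5 of 10 (50%, median 2.39) and sebaceous genes for 6 of 14 (42.9%, median 1.33). Macrophage genes had 1 of 14 higher (7.14%) and a median of 0.25. Mast cell and eosinophil genes had 0 of 10 called and a median of 1.47. Skeletal muscle genes had 0 of 13 called and a median of 1.87, with a median SE of 1.55. Cd4 and Havcr2 are also borne by macrophages and dendritic cells, and Il2ra by dendritic cells. B and plasma cell genes were nearly unmeasured, with 2 of 15 tested and 0 called. The part of these cells in the values of the T and NK cell genes was not tested.

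**Figure D5:**
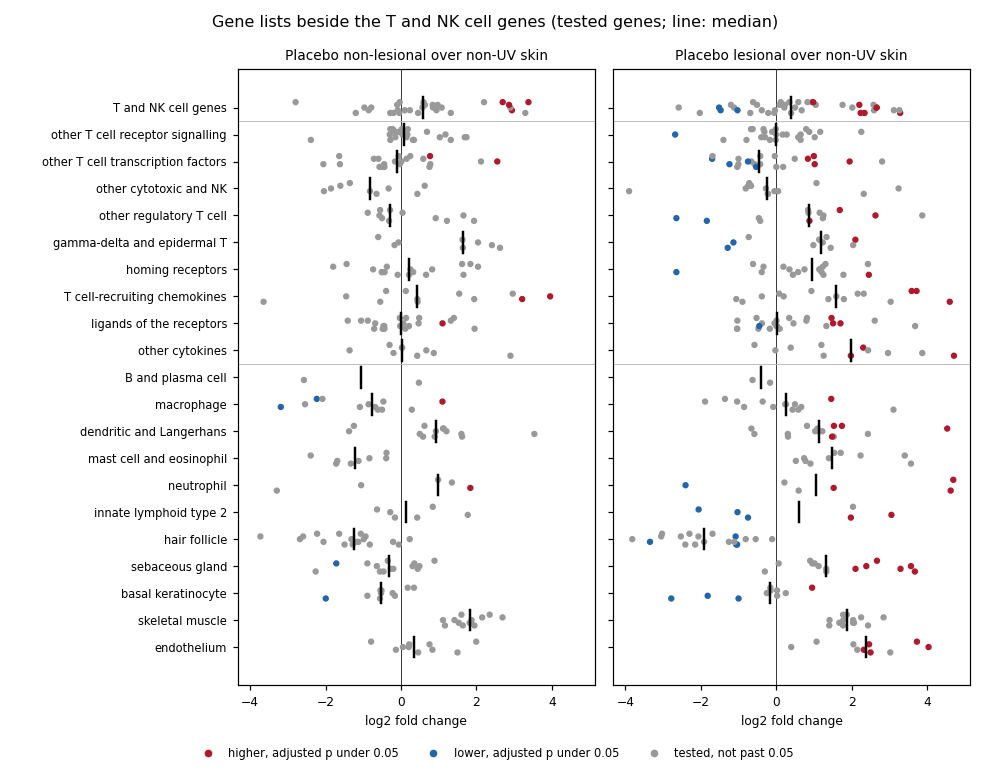
Log2 fold change of every tested gene (points) of each list (rows) in placebo non-lesional (left) and lesional (right) skin over non-UV-exposed skin; black lines are medians and coloured points pass an adjusted p of 0.05. T and NK cell genes, in the top row, hold 4 coloured points on the left and 10 on the right.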

How the data were processed

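Library preparation used TruSeq Stranded Total RNA reagents, according to the labels' protocols. Trim Galore, GRCm38 (mm10) and DESeq2 are named, per the submitters' processing notes. Not given in the sources used here: aligner, counter, strand setting, annotation and DESeq2 design formula. Each of the 4 deposited tables holds, per the file headers, a log2 fold change, a Wald statistic (a score, the fold change over its SE), a p-value and an adjusted p-value. SEs were computed as the log2 fold change over that score. There are 0 columns of values per library. Genes without an adjusted p count as not tested. A called gene has an adjusted p under 0.05 over all genes tested.

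Symbols turned into dates (25) were removed. The table named for perilesional and lesional skin was read by its header, as lesional over back skin: of 1423 genes at exactly 0 in non-lesional over back skin, 704 are above and 0 below 0 in it. Lesional over perilesional skin, and GZ21T lesional over placebo non-lesional skin, were computed as sums of 3 log2 fold changes. Their variances are alternating sums of the squared SEs, which is exact where 1 model holds the group alone, and p-values are two-sided, from the normal distribution, and adjusted by Benjamini-Hochberg where all 3 tables have an adjusted p. The derivation was run on simulated group estimates, independent and of equal variance. Equal variances fix the derived SE in advance, so that run cannot check the model with group alone. Another 4 contrasts are given with no test. Python 3.11.15, pandas 2.3.3 and scipy 1.17.1 were used, and positions come from GENCODE M21.

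The members and the gene lists were chosen with earlier results of these data known. Genes named are each member called in any comparison, in each role group the member with the smallest p in a comparison, and up to 4 called genes of the other lists. Of the 11 members called at least once, 6 overlap another annotated gene. Alternatives were another set of genes tested, no filter, a null spread taken from the genes, centring, a threshold of 0.1 and, for derived contrasts, the largest SE.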

Additional observations from a re-analysis of the deposited data

How the results depend on the processing

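No paired analysis was possible because the tables hold no values per library, and for the same reason no replicate could be left out. Lesional over non-UV-exposed skin, with 10 members called, gave 4 (Cd3e, Icos, Il2rg and Gata3) over the genes tested in all 4 tables, where only 10 members are tested, and 0 when the null spread came from the genes, which left 14 of 15201 genes called. That spread is taken with changed genes included, so it can be too wide. Non-lesional over non-UV-exposed skin, with 4, gave 1 (Icos) over the genes tested in every table. Cd8a, Cd6 and Foxp3 are not in that set, so it could not call them. No called member inside the set lost its call in either comparison. Lesional over perilesional skin, with 1, gave 0 with the null spread from the genes (Cd163l1 adjusted p = 0.31). Foxp3 in non-lesional skin did not pass without the filter (adjusted p = 0.062) or with the null spread from the genes (adjusted p = 0.12). In lesions Gzmc did not pass without the filter (adjusted p = 0.055) or when centred (adjusted p = 0.053), nor Il2rg when centred (adjusted p = 0.062). Of 68 alternatives over 15 single-gene calls, 52 kept the call and 16 lost it, 12 of these with the null spread from the genes. By gene, 3 of the 15 calls were kept under every alternative and 12 were lost under at least 1. Alternatives that left a gene without an adjusted p are not counted. The threshold of 0.1 could not lose a call. The direction turned in 0, but only centring changes a fold change, so this was nearly fixed in advance. The set tested in GZ21T lesions, and that of the derived contrasts, was widened after the data were seen. The counts of 0 in perilesional over non-lesional skin and in both GZ21T comparisons held under every alternative run. Depth is unknown, and the many members with an SE over 1 could hide large differences.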
